A study of Rattus norvegicus with 6 samples.

Results

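Genes of fatty acid oxidation and known targets of the receptor PPAR alpha were followed in the renal cortex of rats dosed with TCEP, short for tris(2-chloroethyl)phosphate, a flame retardant of the organophosphate class. The set holds 36 genes of the 15284 named on the arrays. It was fixed by symbol, each gene being read from its brightest probe, and was sorted by role into 18 genes of mitochondrial steps, 6 of peroxisomal steps, 6 of uptake, activation and storage, and 6 regulators and signalling targets. Male Sprague-Dawley rats, an outbred stock bought at 5 weeks of age and kept on a basal diet, received corn oil (vehicle, 3 rats) or TCEP at 400 mg/kg/day (3 rats), in both cases for 4 weeks. Each rat was measured on 1 single-colour Agilent array, and the comparison asks which transcripts of the cortex differ after TCEP. The labels give no age at sampling and no time of day or feeding state, and the p-values rest on the spread between 3 animals a group.

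Fatty acids enter cells through carriers such as CD36, are bound by fatty acid binding proteins, and are activated to acyl-CoA. Mitochondria take up long chains through the carnitine shuttle and shorten them by repeated cycles of oxidation, hydration, oxidation and thiolysis, passing electrons to the respiratory chain. Peroxisomes run a like cycle for very long and branched chains and hand shortened chains on to mitochondria. PPAR alpha, a nuclear receptor that binds DNA with its partner RXR, raises the transcription of many of these enzymes when fatty acids or certain drugs bind it. Proximal tubule cells of the cortex depend on this pathway for most of their energy.

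The DNA element bound by PPAR alpha and RXR is a direct repeat of the 6-base core AGGTCA with 1 base between the copies, spelled AGGTCANAGGTCA. It was searched on both strands of RefSeq promoter windows (build GRCr8, 250 bases before to 50 after a start), of which 33 belonged to 32 of the 36 members. No member window held the full repeat, against 0.0538% of all 33469 windows. At a share that low, its absence from 33 windows does not set the members apart. Sequence outside the windows was not searched. A copy with at most 1 mismatch, a width chosen after the full search, was found in 2 of 33 member windows (6.06%) and in 0.439% of all windows. The share was 2.33% in windows of the further pathway genes described below. Both member matches, in Fabp1 and Acadvl, are shown with the matched 13-base stretch in capitals. Each line gives 30 bases, at chr4:104749250-104749279 on the plus strand for Fabp1 and at chr10:55236706-55236735 on the minus strand for Acadvl.
Fabp1: aatcgacaatcacTGACCTATGGCCTatat
Acadvl: gagacgggagaagAGGTCAGTGGTCAaggc
The Fabp1 stretch reads on the opposite strand to the gene and starts 77 bases before the table's start, and the Acadvl stretch reads on the gene's own strand and starts 17 bases before it. The 250 bases upstream of Fabp1 (chr4:104749090-104749339, plus strand), with the same 13 bases in capitals, are given for context, since Fabp1 had the largest fitted difference of all members.
Fabp1 upstream: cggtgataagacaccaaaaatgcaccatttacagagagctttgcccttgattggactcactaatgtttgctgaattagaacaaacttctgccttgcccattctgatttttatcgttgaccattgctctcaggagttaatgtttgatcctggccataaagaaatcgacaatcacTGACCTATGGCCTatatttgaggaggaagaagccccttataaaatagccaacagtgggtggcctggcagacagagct
The single core (AGGTCA, or TGACCT on the other strand) stood in 7 member windows (21.2%), against 16.2% of all windows and 12.9% of windows of all genes tested. That count includes cores inside the 2 stretches above. A match describes letters in a window and is not a shown binding site.

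Levels below are log2 processed signals after subtraction of the array's own log2 75th percentile, and differences are TCEP minus vehicle on that log2 scale, with the standard error (SE) and 95% confidence interval of the limma fit over all 11804 genes tested. A ± gives the SD over the 3 arrays of a group. Levels are not compared between genes, because probes differ in brightness. Slide 1 carried the vehicle group and slide 2 the TCEP group, each with a scan time of its own, so slide, scan and treatment cannot be told apart in any difference given here. Between 67.2% and 69.3% of the probes were well above background on each array, and the arrays' 75th percentiles ranged from 966 to 1078 intensity units. All 14 proximal tubule markers tested were well above background on all 6 arrays, as were all 6 endothelial and all 4 podocyte markers, so the defining cells of cortex were present. The arrays measured whole cortex, in which fewer cells of a type and less RNA per cell cannot be told apart.

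Of the 36 members, 35 exceeded background clearly on each array of 1 group or both and were tested, and 0 of them passed a Benjamini-Hochberg adjusted p of 0.05 in limma. In all 11804 genes tested, 0 passed as well (0%). At an unadjusted p under 0.05 there were 2 of the 35 tested members, both with lower means in TCEP-treated cortex, against 8.33% of all genes tested. These were Ehhadh and Ppargc1a. Leaving out vehicle replicate 1 or TCEP replicate 2 reduced the count of 2 to 1, and leaving out TCEP replicate 1 reduced it to 0. TCEP and vehicle arrays did not overlap for 5 members (14.3%), 1 of them higher and 4 lower with TCEP, against 15.6% of all genes tested. Neither share of the members was above that of all genes tested. The median difference over the members was -0.01, against 0.01 over all genes tested. Of the 35 members 15 had a positive difference, which became 23 without scaling between arrays, 21 with spike-in centring and 14 with quantile normalization. The share of all genes tested with a positive difference was 52.5% in the main fit. It was 63.9% without scaling, 61.9% with spike-in centring and 51.4% with quantile normalization.

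**Figure D1:**
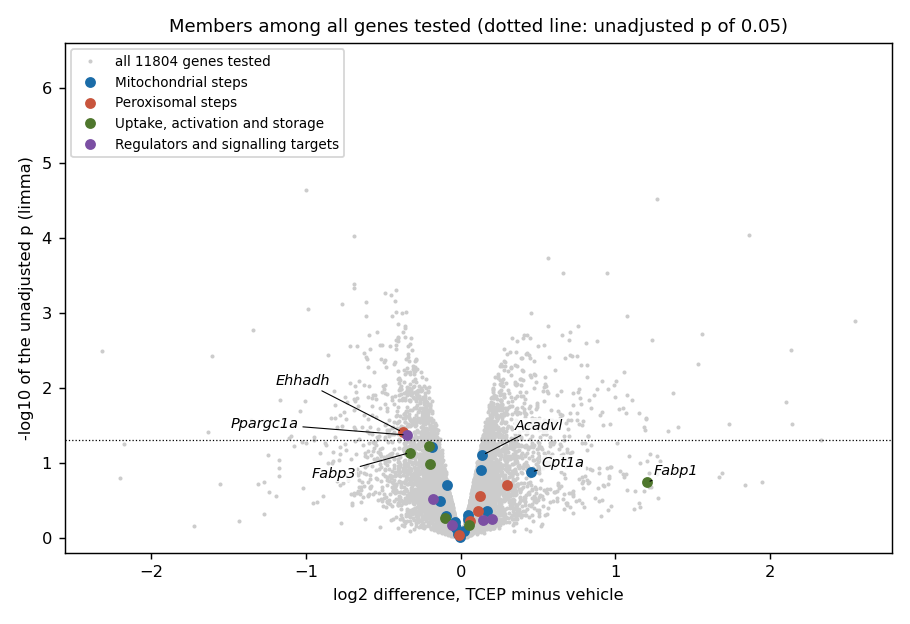
Each point is a gene, with the log2 difference (TCEP minus vehicle) on the x axis and -log10 of the unadjusted limma p on the y axis. Grey points are all 11804 genes tested, coloured points are the 35 tested members by role, and the dotted line marks an unadjusted p of 0.05. Ehhadh and Ppargc1a are the 2 members above that line.

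The intervals show how large a difference the arrays still allow. For 26 of the 35 members the whole 95% confidence interval lay within a 1.5-fold change in either direction, and for 32 it lay within a 2-fold change. The same shares over all genes tested were 76.5% and 91.8%, and over the members 74.3% and 91.4%. The 9 members whose interval reached beyond 1.5-fold were Cpt1a, Acaa2, Ehhadh, Pex11a, Fabp1, Fabp3, Ppara, Ppargc1a and Pdk4. Of these, Cpt1a, Fabp1 and Ppara reached beyond 2-fold.

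**Figure D2:**
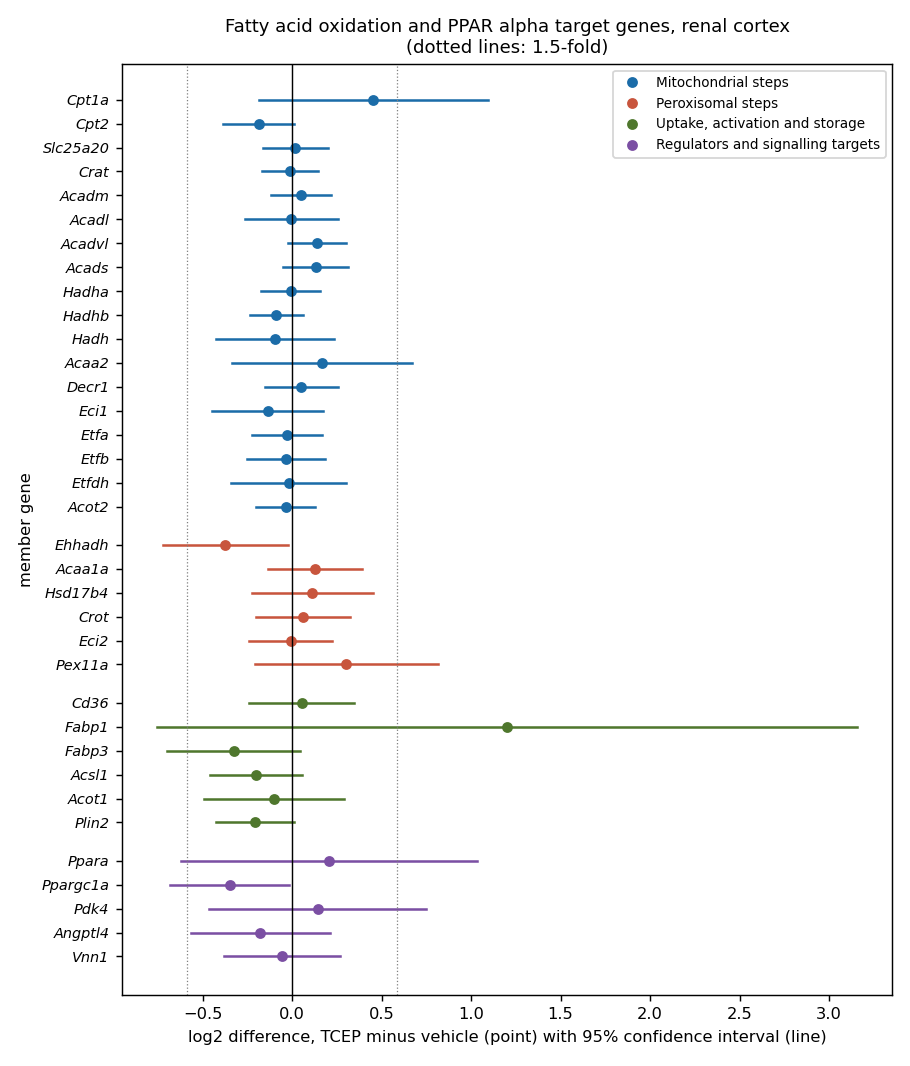
Points are the log2 differences (TCEP minus vehicle, x axis) of the 35 tested members, listed by role on the y axis, and lines are 95% confidence intervals from limma. Dotted lines mark a 1.5-fold change. For 16 of the 18 mitochondrial genes the interval stays between the dotted lines, whereas the interval of Fabp1 runs from -0.75 to 3.16.

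The 18 mitochondrial genes were all tested and 0 were called. Their median difference was -0.01, with 7 positive and 11 negative, and 16 of the 18 intervals lay within 1.5-fold. The mean of the 18 genes, relative to each gene's mean over the 6 arrays, ranged from -0.03 to 0.01 on vehicle arrays and from -0.05 to 0.07 on TCEP arrays. The median SD within groups was 0.09 (0.0895), the same to 2 decimals as the 0.09 (0.0874) of the 2526 tested genes that were at least as bright as the dimmest of them.

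In the carnitine shuttle, Cpt1a, the outer membrane transferase that sets the rate of entry, had levels of 2.19, 2.42 and 2.82 on vehicle arrays and 3.41, 2.82 and 2.56 on TCEP arrays. TCEP replicate 1 was the highest array, and the other TCEP arrays lay within or at the edge of the vehicle range. The difference was 0.45 (SE 0.26, 95% confidence interval -0.19 to 1.09, limma adjusted p = 0.692), and 0.21 without TCEP replicate 1. Cpt2, the inner membrane transferase that rebuilds acyl-CoA, lay at 3.00, 2.87 and 2.85 with vehicle and at 2.70, 2.63 and 2.82 with TCEP. Every TCEP array was below every vehicle array, by a small margin, and the difference was -0.19 (SE 0.08, -0.39 to 0.01, limma adjusted p = 0.612). Slc25a20, the carnitine-acylcarnitine carrier of the inner membrane, had levels of 3.17, 3.11 and 3.00 with vehicle and 3.06, 3.10 and 3.18 with TCEP. Its groups overlapped fully, with a difference of 0.02 (SE 0.07). Crat, which moves acetyl groups between CoA and carnitine, differed by -0.01 (SE 0.06), with vehicle arrays between 6.32 and 6.38 and TCEP arrays between 6.27 and 6.40.

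The acyl-CoA dehydrogenases make the first oxidation and differ in the chain length they accept. Acadvl, for very long chains, lay at 3.997, 3.86 and 3.90 with vehicle and at 4.07, 4.02 and 4.10 with TCEP. All TCEP arrays were above all vehicle arrays, and the difference was 0.14 (SE 0.07, -0.02 to 0.30, limma adjusted p = 0.647). Acadvl was the only member whose TCEP arrays all lay higher, against 8.63% of all genes tested in that direction. A dimmer probe of Acadvl gave 0.05, with overlapping groups. Acadl, for long chains, had levels of 6.38, 6.12 and 6.06 with vehicle and 6.11, 6.15 and 6.28 with TCEP, a difference of -0.0048 (SE 0.11). Acadm, for medium chains, differed by 0.05 (SE 0.07), from 6.29, 6.40 and 6.42 to 6.40, 6.48 and 6.39. Short-chain Acads differed by 0.13 (SE 0.07, -0.05 to 0.31), with vehicle arrays at 5.54, 5.38 and 5.43 and TCEP arrays at 5.50, 5.62 and 5.63. Vehicle replicate 1 of Acads lay within the TCEP range.

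Electrons from these dehydrogenases pass through the electron transfer flavoprotein, made of Etfa and Etfb, to its oxidoreductase Etfdh. Etfa lay between 3.31 and 3.53 with vehicle and between 3.32 and 3.39 with TCEP (difference -0.03, SE 0.08). The Etfb arrays ranged from 6.09 to 6.36 with vehicle and from 6.14 to 6.26 with TCEP (-0.04, SE 0.09). For Etfdh the levels were 3.32, 3.27 and 3.41 with vehicle and 3.04, 3.42 and 3.49 with TCEP (-0.02, SE 0.13). TCEP replicate 1 was the lowest array for Etfdh, while the groups overlapped for all 3 genes.

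Hadha and Hadhb encode the subunits of the trifunctional protein, which carries out the later steps for long chains. Hadha lay at 3.13, 3.17 and 3.04 with vehicle and at 3.06, 3.12 and 3.15 with TCEP (difference -0.01, SE 0.07, -0.17 to 0.15). A second, dimmer Hadha probe gave -0.23 (unadjusted p = 0.0354 in a limma fit of single probes), and its groups did not overlap, so the probes of this gene did not give the same size. Hadhb lay at 2.80, 2.75 and 2.75 with vehicle and at 2.70, 2.63 and 2.72 with TCEP. Its TCEP arrays were all below its vehicle arrays, with the smallest within-group SD of all members (0.04), and the difference was -0.09 (SE 0.06, limma adjusted p = 0.736). Hadh, the short-chain hydroxyacyl-CoA dehydrogenase, had levels of 7.43, 7.31 and 7.42 with vehicle and 7.04, 7.27 and 7.55 with TCEP (-0.10, SE 0.14). Acaa2, the mitochondrial thiolase that releases acetyl-CoA, had levels of 5.42, 5.53 and 5.84 with vehicle and 5.36, 5.90 and 6.04 with TCEP. TCEP replicate 1 was the lowest and TCEP replicate 3 the highest array for both Hadh and Acaa2. The Acaa2 difference was 0.17 (SE 0.21, -0.34 to 0.67).

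Unsaturated chains need further enzymes. Decr1, a reductase of double bonds, differed by 0.05 (SE 0.08), with TCEP arrays between 5.95 and 6.01 inside the vehicle range of 5.79 to 6.05. Eci1, an isomerase that shifts double bonds, had levels of 6.05, 6.09 and 6.27 with vehicle and 5.78, 6.04 and 6.19 with TCEP (-0.14, SE 0.13). Acot2, a mitochondrial thioesterase that frees fatty acids from CoA and a target of PPAR alpha, lay between 4.18 and 4.31 with vehicle and between 4.16 and 4.27 with TCEP (-0.04, SE 0.07). A much dimmer Acot2 probe gave -0.16, with TCEP arrays below vehicle arrays. On their brightest probes the groups of these 3 genes overlapped.

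The 6 peroxisomal genes had a median difference of 0.09, with 4 positive and 2 negative, and 0 were called. That median was 0.13 without scaling between arrays, 0.05 with the mean over a gene's probes and 0.02 without vehicle replicate 2. Ehhadh, the bifunctional enzyme of the inducible peroxisomal cycle and a classical PPAR alpha target, lay at 3.25, 2.97 and 3.31 on vehicle arrays and at 2.69, 2.68 and 3.04 on TCEP arrays. TCEP replicates 1 and 2 were below all vehicle arrays, and TCEP replicate 3 lay just above vehicle replicate 2. The TCEP mean was 0.772 times the vehicle mean, a log2 difference of -0.37 (SE 0.14, -0.72 to -0.03, unadjusted p = 0.0392, limma adjusted p = 0.583). Leaving out single arrays gave values from -0.49 to -0.31. This was the smallest unadjusted p of the members.

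Hsd17b4, the other peroxisomal bifunctional enzyme, which handles branched and very long chains, had levels of 6.28, 5.81 and 6.25 with vehicle and 6.18, 6.26 and 6.25 with TCEP. Vehicle replicate 2 stood apart on the low side, and without it the difference of 0.11 (SE 0.14) became -0.04. Acaa1a, a peroxisomal thiolase, lay at 6.34, 6.10 and 6.40 with vehicle and at 6.30, 6.39 and 6.53 with TCEP (0.13, SE 0.11). Of its 3 probes, 2 gave a positive and 1 a negative difference (0.13, 0.03 and -0.06). Acaa1a has a near-identical copy, Acaa1b, so a probe may take up signal from both. Eci2, a peroxisomal isomerase also found in mitochondria, lay between 4.65 and 4.73 with vehicle and between 4.50 and 4.82 with TCEP (-0.01, SE 0.10). Crot, which moves shortened chains onto carnitine for export to mitochondria, differed by 0.06 (SE 0.11), with vehicle arrays from 3.00 to 3.23 and TCEP arrays from 3.05 to 3.35.

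Pex11a, a membrane protein that promotes peroxisome division and is induced by PPAR alpha ligands, had levels of 5.07, 5.33 and 4.66 with vehicle and 5.18, 5.62 and 5.16 with TCEP. TCEP replicate 2 was the highest and vehicle replicate 3 the lowest array. The difference was 0.30 (SE 0.21, -0.21 to 0.81, limma adjusted p = 0.734), and its 3 probes gave 0.30, 0.33 and 0.23. The value was 0.12 when vehicle replicate 3 was left out, 0.15 when TCEP replicate 2 was, and 0.16 with normexp background correction.

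**Figure D3:**
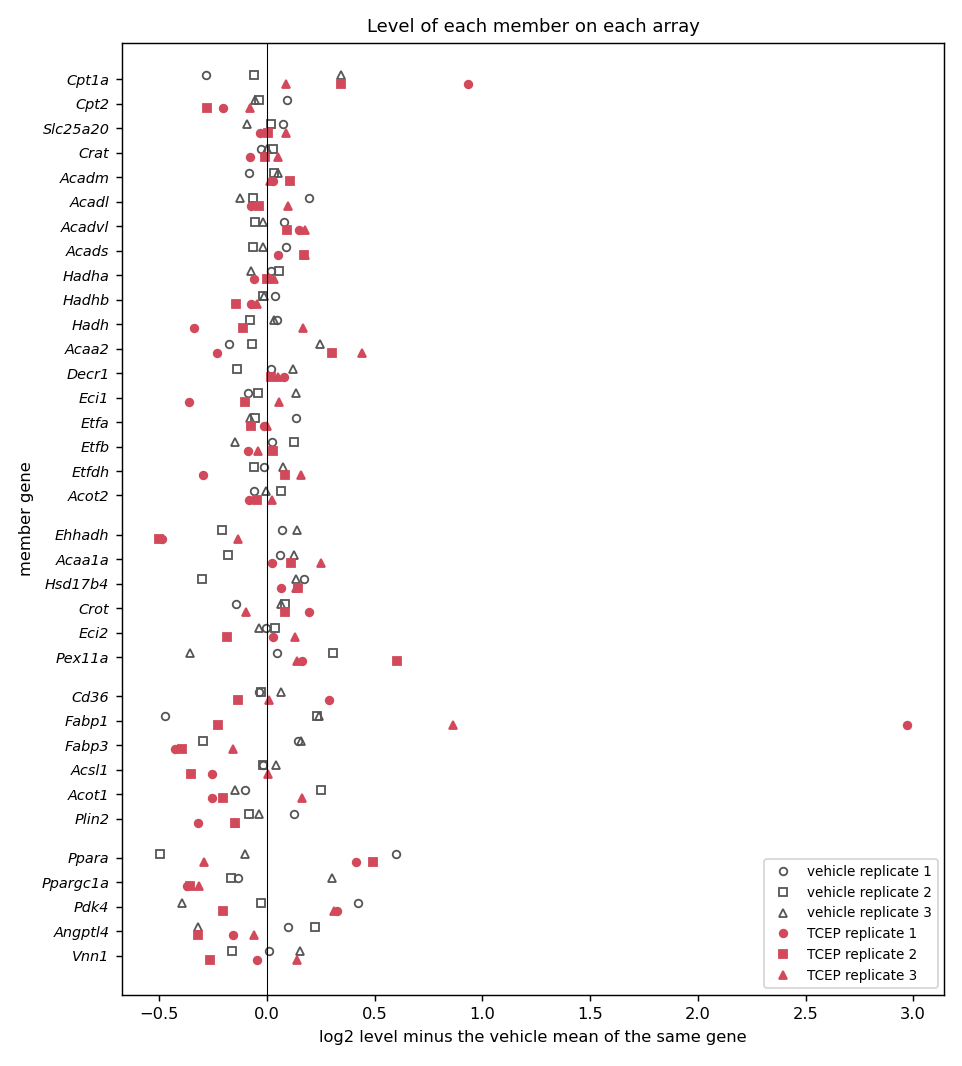
Points are the levels of the 35 tested members (y axis, by role) on the 6 arrays, as the log2 level minus the vehicle mean of the same gene (x axis). Open grey symbols are vehicle arrays and filled red symbols are TCEP arrays, with the symbol shape giving the replicate. Most arrays lie close to the line at 0, and the Fabp1 level of TCEP replicate 1 stands far to the right.

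Several steps are run in both organelles, which allows the mitochondrial and the peroxisomal enzyme to be read side by side. For 6 pairs of enzymes, the log2 ratio of the peroxisomal to the mitochondrial gene on each array was compared between the groups by an exact two-sided permutation test, whose smallest p with 3 against 3 arrays is 0.1. Ehhadh against Hadha gave a difference of -0.37. That pair used the brightest Hadha probe, at -0.01, while the dimmer Hadha probes gave -0.23 and -0.10, so its size depends on the probe. The centred ratios were 0.23, -0.08 and 0.39 with vehicle and -0.25, -0.32 and 0.02 with TCEP, with TCEP replicate 3 above vehicle replicate 2 (exact permutation p = 0.2, 0.72 after Benjamini-Hochberg adjustment over the 6 pairs). For Crot against Cpt2 the value was 0.25 (exact permutation p = 0.3). These 2 do not run the same step, as Crot moves chains onto carnitine and Cpt2 rebuilds acyl-CoA. The remaining 4 pairs, Hsd17b4 against Hadha, Acaa1a against Acaa2, Eci2 against Eci1 and Decr2 against Decr1, differed by between -0.10 and 0.13, with exact permutation p-values of 0.6 to 1.0. The pairs were chosen with the values known, and with 3 arrays a group no p under 0.05 was possible. These p-values therefore do not show whether the organelles differed.

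**Figure D4:**
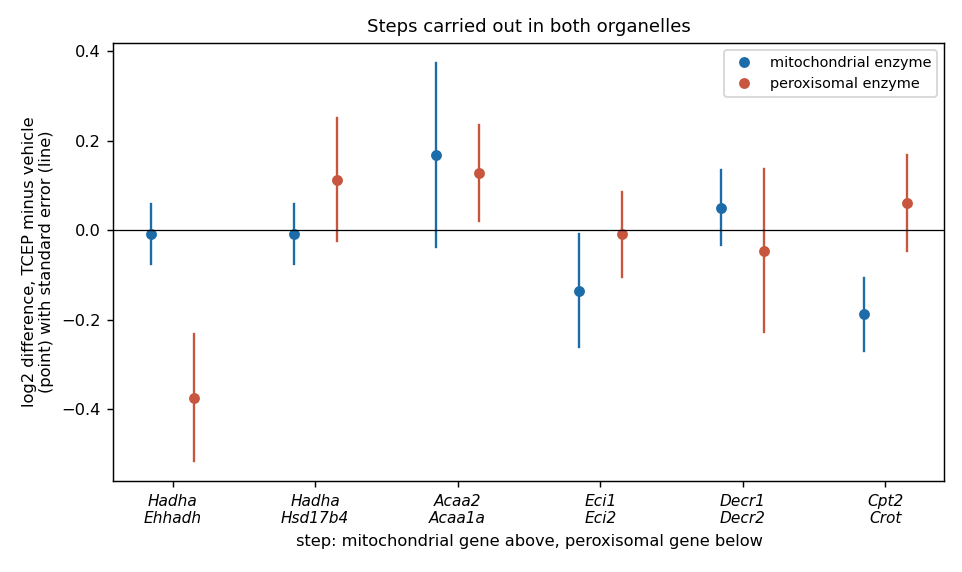
For 6 pairs of enzymes, the log2 difference (TCEP minus vehicle, y axis) of the mitochondrial gene (blue) and of the peroxisomal gene (red) is shown with its standard error. Pairs are named on the x axis with the mitochondrial gene above. Crot and Cpt2 do not run the same step. The Ehhadh point lies at -0.37 and the Hadha point at -0.01, the pair that lies farthest apart on the brightest probes. A dimmer Hadha probe gave -0.23.

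Among the 6 genes of uptake, activation and storage, the median difference was -0.15, with 2 positive and 4 negative and 0 called. Cd36, a membrane carrier for long-chain fatty acids, had levels of 2.36, 2.38 and 2.47 with vehicle and 2.69, 2.27 and 2.41 with TCEP (0.05, SE 0.12). Its 3 probes gave 0.05, 0.01 and 0.04. Acsl1, which activates long chains to acyl-CoA, lay at 5.40, 5.40 and 5.46 with vehicle and at 5.17, 5.07 and 5.43 with TCEP. TCEP replicates 1 and 2 were below all vehicle arrays and TCEP replicate 3 was within their range (-0.20, SE 0.10, limma adjusted p = 0.661). Its 4 probes all gave negative differences, between -0.34 and -0.17. Plin2, which coats lipid droplets and is a PPAR alpha target, lay at 5.01, 4.81 and 4.85 with vehicle and at 4.57, 4.74 and 4.74 with TCEP. All TCEP arrays were below all vehicle arrays, and the difference was -0.21 (SE 0.09, -0.42 to 0.01, limma adjusted p = 0.611). The cytosolic thioesterase gene Acot1 differed by -0.10 (SE 0.16), with vehicle arrays between 4.94 and 5.34 and TCEP arrays between 4.84 and 5.25. Acot1 and Acot2 are close paralogs, so a probe for either may take up signal from both.

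The fatty acid binding proteins carry fatty acids through the cytosol. Fabp3, the heart-type protein, lay at 4.53, 4.09 and 4.54 with vehicle and at 3.96, 3.99 and 4.23 with TCEP. TCEP replicates 1 and 2 were below all vehicle arrays, while TCEP replicate 3 lay above vehicle replicate 2. The TCEP mean was 0.797 times the vehicle mean, a log2 difference of -0.33 (SE 0.15, -0.70 to 0.04, limma adjusted p = 0.641). With normexp background correction the difference was -0.45 (limma adjusted p = 0.300), and no member had a smaller adjusted p under any alternative, a value that Plin2 shared.

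Fabp1, the liver-type protein, had the largest difference and the widest spread of all members. Its levels were -4.80, -4.09 and -4.08 on vehicle arrays and -1.35, -4.55 and -3.46 on TCEP arrays. TCEP replicate 1 stood far above all other arrays, TCEP replicate 3 lay above the vehicle range, and TCEP replicate 2 lay within it. The difference was 1.20 (SE 0.80, -0.75 to 3.16, limma adjusted p = 0.726), against 0.32 without TCEP replicate 1, 1.92 without TCEP replicate 2 and 0.76 with normexp background correction. A further Fabp1 probe gave 0.93, and on it TCEP replicate 2 (-5.29) lay below all vehicle arrays (-4.90 to -4.73). Fabp1 was dim, as the lowest level well above background was between -6.06 and -5.75 on each array. Of 9 markers of fat, which can adhere to kidney samples, 8 were named and 6 were tested, 5 with a positive and 1 with a negative difference. The mean of the 6, relative to each gene's own mean, ranged from -0.62 to 0.23 on vehicle arrays and from -0.38 to 0.69 on TCEP arrays, with TCEP replicate 1 the highest. Of the single markers, Fabp4, Cidec and Cidea were highest on that array, and Adipoq, Cfd and Ucp1 were highest on a vehicle array. Fabp4, the adipocyte fatty acid binding protein, lay at -4.14, -3.82 and -4.20 with vehicle and at -1.58, -2.70 and -3.67 with TCEP. Every TCEP array of Fabp4 was above every vehicle array (1.41, SE 0.51, limma adjusted p = 0.565). Cfd, the adipsin gene, lay the other way, at -2.21, -1.26 and -2.59 with vehicle and -2.50, -2.79 and -3.24 with TCEP (-0.82, SE 0.37, limma adjusted p = 0.634). The lipid droplet genes Cidec and Cidea differed by 0.66 (SE 0.59) and 0.23 (SE 0.35), and Ucp1, of brown fat, by 0.23 (SE 0.40), all with overlapping groups. Adipoq, the adiponectin gene, lay at -0.07, 0.18 and -0.46 with vehicle and 0.06, -0.04 and -0.09 with TCEP, and leptin (Lep) was not well above background on any array. The part of these markers in the Fabp1 and Cpt1a values of TCEP replicate 1 was not tested.

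Of the 6 regulators and signalling targets, 5 were tested, with a median difference of -0.06, 2 positive and 3 negative, and 0 called. Ppara itself, the receptor, had levels of -0.15, -1.25 and -0.85 with vehicle and -0.34, -0.26 and -1.04 with TCEP. Its spread between animals was the second largest of the members, with an SD within groups of 0.50, and vehicle replicate 1 and vehicle replicate 2 were its highest and lowest arrays. The difference was 0.20 (SE 0.34, -0.62 to 1.03) and -0.04 without vehicle replicate 2. Its second probe gave 0.25.

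Ppargc1a, the coactivator of mitochondrial biogenesis that works with PPAR alpha, lay at -0.51, -0.54 and -0.08 with vehicle and at -0.75, -0.73 and -0.69 with TCEP. The 3 TCEP arrays were tightly grouped (SD 0.03) and all below the vehicle arrays (SD 0.26), of which vehicle replicate 3 was the highest. The TCEP mean was 0.786 times the vehicle mean, a log2 difference of -0.35 (SE 0.14, -0.68 to -0.02, unadjusted p = 0.0427, limma adjusted p = 0.587), and -0.20 without vehicle replicate 3. Ppargc1a was 1 of the 4 members whose TCEP arrays all lay lower, with Cpt2, Hadhb and Plin2, against 6.97% of all genes tested in that direction.

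Pdk4, a kinase that turns off pyruvate oxidation when fat is burned, had levels of -2.01, -2.46 and -2.83 with vehicle and -2.11, -2.64 and -2.13 with TCEP (0.14, SE 0.25, -0.46 to 0.75). Without vehicle replicate 3 the difference was -0.05. Angptl4, a secreted inhibitor of lipoprotein lipase, had levels of 4.14, 4.26 and 3.72 with vehicle and 3.88, 3.72 and 3.98 with TCEP (-0.18, SE 0.16). Vnn1, a pantetheinase and PPAR alpha target, lay between 4.17 and 4.48 with vehicle and between 4.07 and 4.47 with TCEP (-0.06, SE 0.13). The groups of these 3 genes overlapped. Ucp3, an uncoupling protein of muscle and brown fat, was not well above background on any of the 6 arrays with either of its 2 probes and was not tested.

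The wider pathway was read from a list of 98 further genes of mitochondrial and peroxisomal oxidation, ketone metabolism, lipid uptake and storage, and their regulators. Of these 90 were named on the arrays and 87 tested, and 0 passed in either direction. Their median difference was 0.03, and 49 were positive and 38 negative. At an unadjusted p under 0.05 there were 10 of the 87, against 8.33% of all genes tested. Of the 10, 2 were higher and 8 lower, where all genes tested had 4.21% higher and 4.12% lower. TCEP and vehicle arrays did not overlap for 13 of the 87 (14.9%), 6 higher and 7 lower, against 15.6% of all genes tested. The count of 10 was 1 without vehicle replicate 1, 6 without TCEP replicate 2 and 6 with the replicate number as a block.

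Lpin1, a phosphatidate phosphatase, lay at the low end of the list at -0.60 (SE 0.27, limma adjusted p = 0.634). It was dim, with means of -4.95 with vehicle and -5.54 with TCEP. Only 2 of the 3 TCEP arrays were well above background, and TCEP replicate 2 was the lowest at -6.15. At the other end were Acox2, a peroxisomal oxidase of branched chains, at 0.97 (SE 0.34, limma adjusted p = 0.561) and Bdh1, a ketone body dehydrogenase, at 0.37 (SE 0.12, limma adjusted p = 0.557). The groups overlapped for Acox2 and not for Bdh1, and Acox2 had a vehicle mean of -3.27.

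The remaining named genes of the list had smaller differences. Cat, the peroxisomal catalase, was at 3.26, 3.35 and 3.21 with vehicle and at 3.53, 3.36 and 3.48 with TCEP (0.18, SE 0.08). The peroxisomal membrane carrier gene Abcd3 differed by -0.07 (SE 0.07), the carnitine importer gene Slc22a5 by -0.10 (SE 0.15) and the mitochondrial hydratase gene Echs1 by 0.09 (SE 0.07). Slc27a2, which encodes a very long chain acyl-CoA synthetase of proximal tubule, differed by 0.12 (SE 0.08), and Cpt1b, the muscle-type transferase, by -0.05 (SE 0.19). Among receptors and their partners, Ppard differed by -0.28 (SE 0.18), Pparg by 0.20 (SE 0.25), Esrra by 0.08 (SE 0.07) and Rxra by 0.08 (SE 0.13). The receptor genes thus had intervals that included 0.

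Markers of the proximal tubule, the segment in which most of these enzymes are made, had 8 positive and 6 negative differences among 14, with a median of 0.03. Their mean ranged from -0.17 to 0.09 on vehicle arrays and from 0.00 to 0.09 on TCEP arrays, so the groups overlapped. Slc7a13, Slc22a7, Ggt1 and Aqp1 were highest on TCEP replicate 1. Slc34a1, Slc5a2, Slc22a8, Lrp2, Slc5a12, Slc13a3, Miox and Gatm were lowest on that array, and Slc22a6 and Cubn were neither. The 4 intercalated cell markers, of a collecting duct cell that is not a main site of this pathway, had a mean of 0.05 to 0.22 on vehicle arrays and of -0.20 to -0.12 on TCEP arrays, without overlap. Of these markers 3 had negative differences, and Slc4a1 had a positive one (0.05) with overlapping groups. The 3 tested markers of the distal convoluted and connecting tubule, all with negative differences (median -0.42), ranged from -0.13 to 0.46 on vehicle arrays and from -0.27 to -0.17 on TCEP arrays, also without overlap. In limma 0 of the intercalated cell markers and 0 of the distal convoluted and connecting tubule markers passed an adjusted p of 0.05. All 4 podocyte markers had negative differences (median -0.27), with overlapping means. The means of thick ascending limb, principal cell, endothelial, macrophage and blood markers also overlapped between the groups. The part of these markers in the members' values was not tested. Striated muscle, another tissue rich in Fabp3 and Ucp3, had 3 of 6 markers tested, with a median of 0.03. These were Ckm, Mb and Tnnt3, all well above background on all 6 arrays. Myh2 and Actn3 were well above background on some arrays, and the myosin gene Myh1 on none.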

How the data were processed

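The authors' scanner files, made with Agilent Feature Extraction 10.7.1.1 per the file headers, hold an intensity per spot that was background-subtracted and detrended and is not scaled between arrays. The median intensities of spot and local background and the flags deposited as other values of 0 or 1 come from the same files, per the file headers. The deposited series matrix holds the processed intensity divided by a constant per array (column medians 0.104 to 0.107, linear scale, no centring seen). Its columns were used as an alternative. No pair of arrays was identical, and at most 1 probe per array was saturated.

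After leaving out 12 probes marked as outliers, 27453 of 61657 non-control probes (44.5%) were named through their accessions in RefSeq's GRCr8 gene table, used for names only. Log2 processed signal minus the array's log2 75th percentile was fitted in R 4.3.3 with limma 3.58.1, treatment group being the one term (moderated by eBayes, two-sided, 5.93 degrees of freedom). A gene was tested if its brightest probe carried the scanner's flag for clear signal over background throughout at least 1 group, with Benjamini-Hochberg adjustment over all genes tested. The fit was tested on simulated data. The number of arrays limits the precision.

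Every member is named, along with genes of the wider list fixed by name and its 2 highest and 2 lowest, except 2 genes that are not reported here. Members and lists were chosen with earlier results of these data known. Figures used Python 3.11.15 and matplotlib 3.10.9. Proteins were not used here.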

Additional observations from a re-analysis of the deposited data

How the results depend on the processing

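In limma 0 members, 0 other pathway genes and 0 of all genes passed the adjusted threshold in any of the 17 alternatives to which each was refitted, and 0 of all probes did when each probe was tested on its own. Of the 35 tested members 17 kept the sign of their difference in all 17 alternatives, and the smallest adjusted p of any member was 0.300. The count of members at an unadjusted p under 0.05, 2 as reported, was 4 with quantile normalization and with normexp, 1 without scaling and with no filter on dim probes, 0 with spike-in centring, 5 with a robust variance trend and with array weights, and 0 to 3 without single arrays. For the other pathway genes the count of 10 was 5 with spike-in centring, 16 with array weights and 1 to 9 without single arrays. For all genes the 983 became 397 with spike-in centring and 1568 with normexp, 3416 of all probes were found when each was tested on its own, and leaving out single arrays gave 694 to 1004. The peroxisomal median of 0.09 was 0.13 without scaling, 0.046 with the mean over all probes, and 0.024 to 0.11 without single arrays. The median of the other pathway genes, 0.03, was 0.076 without scaling, 0.069 with spike-in centring, 0.0046 with the mean over all probes and 0.013 to 0.049 without single arrays. Leaving out the scaling, or centring on spike-ins, changes a constant per array, which moves every gene's difference by the same amount. The median over all genes tested, 0.0084, was 0.050 without scaling and 0.043 with spike-in centring. The causes of the other shifts were not tested. The replicate numbers do not pair the animals by any label, and deviations of same-numbered arrays correlated at -0.15, -0.10 and 0.23. With the number as a block 3 members, 6 other pathway genes and 850 of all genes had an unadjusted p under 0.05, and 0 passed after adjustment. The planned normexp used median spot signals with an offset of 50. The planned comparison of protein sequences was not run.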
